A study of Mus musculus with 20 samples.

Results

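Immediate early genes are switched on within minutes of a stimulus, without new protein synthesis, and 10 of them were followed here across sorted cells of mouse muscle and bone marrow: Fos, Fosb, Jun, Junb, Jund, Egr1, Nr4a1, Nr4a2, Atf3 and Ccn1. They were taken by symbol from the array's probe-to-gene table, which gave 16 probe sets of 12422 (10 genes of 8251). A probe set is the group of short DNA probes that reads one transcript, and 5 of the genes had a single one. The cells came from adult C57BL/10SnJ mice, an inbred strain, and all groups shared that background and received no stated treatment. Side population (SP) cells are the small fraction that pumps out a DNA-binding Hoechst dye, and main population (MP) cells are those that retain it. RNA of SP and MP cells of muscle, and of SP and MP cells of bone marrow, was measured on 5 arrays per group, 20 in all. The labels do not tell whether the 5 arrays of a group stand for different mice, so the p-values speak of the spread among these arrays, which may be technical.

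Fos and Jun proteins pair through leucine zippers into the AP-1 factor, which binds DNA in front of many growth, inflammation and stress genes. Signals through MAP kinases, SRF and CREB start their transcription, and the messages decay quickly. Freeing cells from a solid tissue by enzyme digestion is a known trigger of the same genes, in muscle stem cells among others, which is why they are often inspected in sorted cells. Ccn1 (Cyr61) belongs to this early response but encodes a secreted matrix protein, so the name "transcription factors" covers 9 of the 10 genes.

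The promoter sequences of 4 genes are shown because Junb, Nr4a1 and Nr4a2 were the genes with higher signal in SP than in MP cells of both tissues, with Fos beside them as the best known member of the family. They come from RefSeq on the mouse build GRCm38.p6, run from 250 bases before to 50 after the annotated start, and are written in the direction of transcription. They lie at chr8:84978699-84978998 on the minus strand (Junb), chr15:101266596-101266895 on the plus strand (Nr4a1), chr2:57123954-57124253 on the minus strand (Nr4a2) and chr12:85473640-85473939 on the plus strand (Fos). Capitals mark the CRE half-site TGACG, the core bound by CREB and ATF proteins, and the EGR site GCGNGGGCG, each on either strand.
Junb: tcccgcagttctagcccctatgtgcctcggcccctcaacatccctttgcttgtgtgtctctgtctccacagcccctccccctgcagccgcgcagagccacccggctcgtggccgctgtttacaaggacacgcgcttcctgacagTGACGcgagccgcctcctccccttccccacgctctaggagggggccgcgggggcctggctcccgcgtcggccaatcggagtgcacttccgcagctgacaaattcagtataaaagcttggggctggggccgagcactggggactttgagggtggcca
Nr4a1: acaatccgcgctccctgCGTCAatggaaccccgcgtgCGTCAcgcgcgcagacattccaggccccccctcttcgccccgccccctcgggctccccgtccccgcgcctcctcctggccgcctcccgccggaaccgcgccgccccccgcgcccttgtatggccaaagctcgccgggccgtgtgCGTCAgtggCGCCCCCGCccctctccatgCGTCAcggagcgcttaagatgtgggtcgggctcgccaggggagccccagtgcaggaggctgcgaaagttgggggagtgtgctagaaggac
Nr4a2: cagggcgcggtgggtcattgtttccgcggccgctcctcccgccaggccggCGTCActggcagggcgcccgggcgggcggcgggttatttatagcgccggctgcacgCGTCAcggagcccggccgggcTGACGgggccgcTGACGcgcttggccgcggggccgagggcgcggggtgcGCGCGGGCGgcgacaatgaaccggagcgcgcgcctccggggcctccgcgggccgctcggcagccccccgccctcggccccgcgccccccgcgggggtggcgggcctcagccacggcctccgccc
Fos: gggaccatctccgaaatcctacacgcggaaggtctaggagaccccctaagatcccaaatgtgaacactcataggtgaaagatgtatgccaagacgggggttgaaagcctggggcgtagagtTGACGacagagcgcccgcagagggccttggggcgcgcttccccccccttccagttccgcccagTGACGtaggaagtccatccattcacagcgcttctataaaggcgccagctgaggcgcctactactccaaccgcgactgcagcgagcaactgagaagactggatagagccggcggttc

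The windows of 9 of the 10 members were scanned, and Egr1 was left out. The CRE half-site occurred in 7 of these 9, and in 20.8% of 32851 mouse promoters of the same length. Among the 4 shown, Nr4a1 and Nr4a2 held 4 copies each, Fos 2, with one that began at position -66 from the start, and Junb 1. The EGR site stood in the windows of Fosb, Nr4a1 and Nr4a2, against 5.55% of all promoters. The full CRE TGACGTCA, which contains the half-site, was in 0 of the 9 windows and in 1.79% of all promoters. The AP-1 site TGAGTCA (5.20% of all promoters), the NBRE AAAGGTCA that Nr4a proteins bind (1.51%) and the CArG box that SRF binds (1.63%) were likewise in 0 of 9. Sites more than 250 bases before the start, and any in Egr1, were outside the scan. A count of 0 therefore does not show that these genes lack such sites. A match describes letters in a window and does not show that a protein bound there.

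The deposited values were treated as linear signal intensities scaled by the authors. Array medians still ranged from 319 to 613, so the arrays were quantile normalized, and log2 signal below means log2 of the normalized intensity. Values under 105 (log2 6.71) were set to that floor. Correlations between arrays of one group over all probe sets tested ranged from 0.911 to 0.981, and the lowest values were in the 2 SP groups. Of the 16 probe sets, 15 covering all 10 genes passed the filter of exceeding the floor on at least 5 arrays. The remaining one, another Atf3 probe set, had deposited medians of 21.2 in muscle SP, 15.2 in muscle MP, 49.2 in bone marrow SP and 19.8 in bone marrow MP cells. Probe sets with i, r, f or g in their name can also pick up related sequences, which applies to both of Junb, to all of Atf3, to the second of Nr4a2 and to the dim one of Egr1.

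Other cell types and RNA quality also differed between the groups. The ratio of 3' to 5' GAPDH control signal, which rises with RNA degradation or short synthesis, averaged 3.83 ± 0.61 (log2, SD) on muscle SP and 2.66 ± 0.62 on muscle MP arrays (n = 5 each, exact two-sided permutation p = 0.0238, adjusted over 4 tests 0.0317). In bone marrow it averaged 3.72 ± 0.60 on SP and 2.67 ± 0.72 on MP arrays (exact permutation p = 0.0397, adjusted 0.0397), and the beta-actin ratio was likewise higher in SP in both tissues (adjusted p = 0.0317 each). The summed signal of 8 T and NK cell markers was 14.06, 14.80, 15.66, 11.88 and 11.79 (log2) on muscle SP arrays 1 to 5, against 9.80 to 10.14 on muscle MP arrays. It was 15.41 to 16.39 on bone marrow SP and 11.86 to 12.69 on bone marrow MP arrays. In bone marrow SP cells all 6 B lineage markers were lower (sum 10.96 to 11.95 in SP, 12.92 to 13.77 in MP), 4 of 7 macrophage markers were lower (14.37 to 16.00 in SP, 16.55 to 16.86 in MP) and all 5 blood stem and progenitor markers were higher (13.40 to 14.46 in SP, 11.50 to 12.14 in MP). Cd3e and Cd3g, which define T cells, stayed at the floor on each of the 10 muscle arrays. Cd3d of the same marker list was at the floor on all 5 muscle MP arrays but not on all muscle SP arrays. Of the 8 T and NK cell markers 5 were called higher and 0 lower in muscle SP than in muscle MP cells, Ccl5, Gzma, Gzmb and Klrd1 among them. The 7 macrophage markers were all lower in muscle SP cells (summed log2 signal 11.96 to 13.75 in SP, 14.52 to 14.95 in MP), the endothelial sum was higher (17.25 to 17.53 in SP, 16.60 to 16.89 in MP), and the fibroblast sum was lower (15.99 to 16.79 in SP, 17.42 to 17.98 in MP). These differences move with SP against MP. Their part in the results that follow was not tested except where values without some arrays or with the GAPDH ratio as covariate are given. In bulk RNA such as this, more cells of a type and more RNA per cell cannot be told apart.

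**Figure D1:**
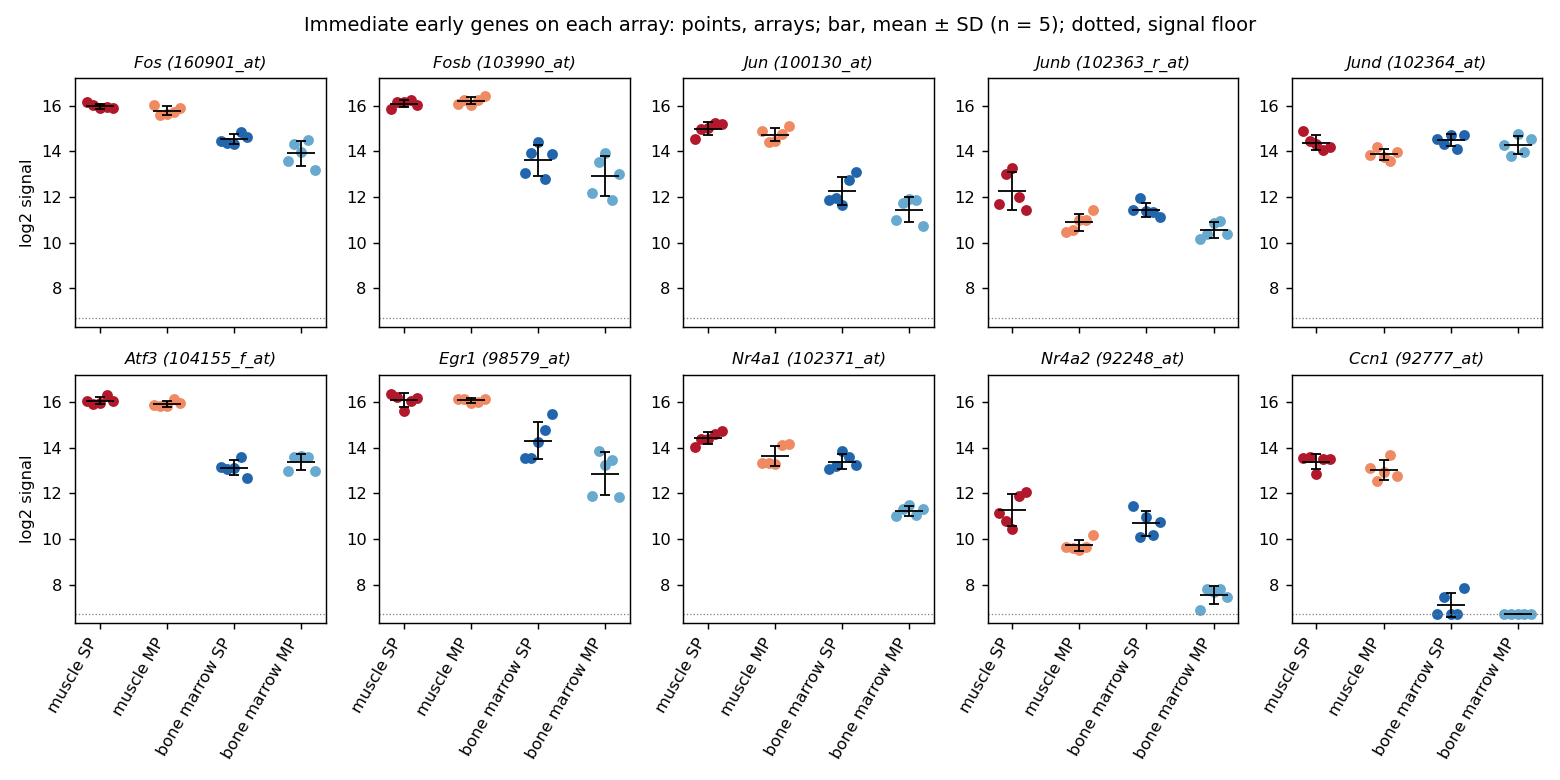
Normalized log2 signal of each immediate early gene (brightest probe set) on every array, by group, with bars for the group mean ± SD (n = 5) and a dotted line at the signal floor. Fos, Fosb, Jun, Egr1, Atf3 and Ccn1 lay higher on all muscle arrays than on all bone marrow arrays, and Nr4a2 lay higher on all SP than on all MP arrays of the same tissue.

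Muscle SP cells held more Nr4a2, Junb and Nr4a1 message than muscle MP cells, while Fos, Fosb, Jun and Egr1 did not pass the test. By limma with Benjamini-Hochberg adjustment over 10310 probe sets, 6 of the 15 member probe sets (4 genes) were higher in SP at an adjusted p under 0.05 and 0 were lower (at an unadjusted p under 0.05, 7 higher and 0 lower), where 5.1% of all probe sets were called higher and 6.64% lower. The median log2 difference of the 15 was 0.52, beside 0.03 over all probe sets. By the brightest probe set of each gene, 3 of the 10 members were higher and 0 lower, with a median of 0.33. In bone marrow 8 of the 15 (6 genes) were higher in SP and 1 was lower, against 15.4% and 14.8% of all probe sets, and the median difference was 0.70, beside 0.02. The bone marrow count of 8 was 4 with median scaling, and 5 when MP array 1 or MP array 5 was left out.

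Nr4a2 (Nurr1), an orphan nuclear receptor that acts without a known natural ligand, differed most. Its probe set 92248_at gave 11.14, 10.79, 10.43, 11.88 and 12.04 log2 signal on muscle SP arrays 1 to 5, against 9.65, 9.60, 9.52, 9.64 and 10.17 on muscle MP arrays 1 to 5. In bone marrow it gave 11.42, 10.08, 10.96, 10.17 and 10.75 in SP cells, against 6.90, 7.80, 7.69, 7.82 and 7.47 in MP cells. SP and MP values did not overlap in either tissue, and the bone marrow MP arrays were the lowest of the study. The log2 difference was 1.54 ± 0.30 in muscle (SE, 2.91-fold, limma adjusted p = 0.00124) and 3.14 ± 0.30 in bone marrow (8.84-fold, adjusted p = 5.69e-08). The second probe set, 92249_g_at, gave 1.69 ± 0.32 in muscle and 3.18 ± 0.32 in bone marrow, again without overlap, and the array-to-array deviations of both probe sets from their group means correlated at 0.94. The SP calls of both probe sets held under every alternative tried, and without the 3 muscle SP arrays of highest T and NK marker sum the muscle difference of 92248_at was 2.26 ± 0.32, larger than with them.

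Nr4a1 (Nur77), the relative induced by antigen receptor and stress signals in T cells, was also higher in SP than in MP cells of both tissues. It gave 14.02, 14.37, 14.40, 14.60 and 14.71 on muscle SP arrays, against 13.31, 13.34, 13.28, 14.10 and 14.15 on muscle MP arrays. In bone marrow it gave 13.06, 13.21, 13.85, 13.61 and 13.23 in SP cells, against 10.99, 11.31, 11.51, 11.04 and 11.31 in MP cells. The muscle values overlapped, since MP arrays 4 and 5 reached the lowest SP array, and the bone marrow values lay far apart. The log2 difference was 0.78 ± 0.21 in muscle (1.72-fold, limma adjusted p = 0.018) and 2.16 ± 0.21 in bone marrow (4.47-fold, adjusted p = 9.66e-08). The muscle call was lost when muscle MP array 1, 2 or 3 was left out (adjusted p = 0.0527, 0.0533 and 0.0582), when only the muscle arrays were fitted (0.0541) and with the GAPDH ratio as covariate (0.0526). The bone marrow call held under every alternative.

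Junb, an AP-1 subunit known to restrain growth of myeloid cells, was higher in SP cells by its probe set 102362_i_at, which gave 10.93, 12.17, 12.61, 11.11 and 10.94 on muscle SP arrays, against 9.54, 9.32, 10.15, 10.26 and 10.52 on muscle MP arrays. In bone marrow it gave 9.59, 10.85, 10.52, 9.20 and 10.34 in SP cells, against 7.71, 8.16, 8.52, 8.97 and 8.50 in MP cells. The groups did not overlap in either tissue, and within muscle SP cells arrays 2 and 3 stood above the other 3. The log2 difference was 1.60 ± 0.36 in muscle (3.02-fold, limma adjusted p = 0.00457) and 1.73 ± 0.36 in bone marrow (3.31-fold, adjusted p = 7.47e-04). The second probe set, 102363_r_at, gave 11.68, 12.99, 13.25, 11.99 and 11.41 on muscle SP arrays, against 10.47, 10.55, 11.01, 10.97 and 11.43 on muscle MP arrays, which overlapped through SP array 5. Its difference was 1.38 ± 0.30 in muscle (adjusted p = 0.00354) and 0.91 ± 0.30 in bone marrow (adjusted p = 0.0247), and the bone marrow call was lost with median scaling (0.58, adjusted p = 0.167) and without SP array 2 or MP array 1, 2 or 5 (adjusted p from 0.0520 to 0.0719). Muscle SP arrays 2 and 3 also had the highest T and NK marker sums of their group, and the highest granulocyte sums (14.98 and 13.47, against 10.88 and 10.37 on arrays 4 and 5). Arrays 1 to 3 stood above arrays 4 and 5 for erythroid (13.58 to 14.24 against 10.87 and 11.07), macrophage (13.23 to 13.75 against 11.99 and 11.96) and fibroblast sums (16.69 to 16.79 against 15.99 and 16.08) as well, so leaving them out removes all of these together. Without the 3 muscle SP arrays of highest sum, the muscle differences were 1.08 ± 0.41 and 0.82 ± 0.30 and neither was called (adjusted p = 0.120 and 0.0982), although 2 SP arrays then remained.

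Fos, the partner of Jun proteins in AP-1, was called higher in SP cells of bone marrow, by a difference that depended on single arrays. Its bright probe set 160901_at gave 14.45, 14.38, 14.33, 14.87 and 14.65 on bone marrow SP arrays, against 13.58, 14.31, 13.97, 14.50 and 13.18 on bone marrow MP arrays. In muscle it gave 16.15, 16.03, 15.88, 15.95 and 15.91 in SP cells, against 16.03, 15.58, 15.65, 15.75 and 15.91 in MP cells. Both tissues overlapped, with bone marrow MP array 4 inside the SP range. The bone marrow difference was 0.63 ± 0.21 (1.54-fold, limma adjusted p = 0.0247) and the muscle difference 0.20 ± 0.21 (95% interval -0.23 to 0.63, adjusted p = 0.620). Without further normalization the muscle difference was 0.68 ± 0.25 and with median scaling 0.61 ± 0.27, and neither was called (adjusted p = 0.0785 and 0.1495), while the deposited signals did not overlap, at 55594 to 115552 in muscle SP and 36210 to 51890 in muscle MP cells. The bone marrow call was lost in 9 alternatives, among them leaving out SP array 4 or 5 or MP array 1 or 5 (adjusted p = 0.0681, 0.0501, 0.0724 and 0.0896), and the difference was 0.01 with median scaling (adjusted p = 0.998). The dim probe set 161716_at, between 6.90 and 9.11 on all arrays, was not called in either tissue.

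Jun and Egr1 were likewise called in bone marrow and not in muscle, which by itself does not show that the tissues differ. The test of the difference between tissues, given below, called neither of them. Jun (100130_at) gave 11.86, 11.96, 11.67, 12.74 and 13.08 on bone marrow SP arrays, against 11.00, 11.75, 11.93, 11.85 and 10.72 on bone marrow MP arrays. The groups overlapped through SP arrays 1 and 3, and SP arrays 4 and 5, which have 2 of the 3 highest GAPDH ratios of the study, were the highest. The log2 difference was 0.81 ± 0.28 (1.76-fold, limma adjusted p = 0.0304), and it was 0.38 and not called without the 3 arrays of highest GAPDH ratio (adjusted p = 0.296). The call was lost in 9 alternatives in all, among them median scaling (0.35, adjusted p = 0.441) and leaving out SP array 4 or 5 or MP array 1 or 5 (adjusted p = 0.0820, 0.0998, 0.0861 and 0.1003). In muscle Jun gave 14.53, 14.97, 15.05, 15.26 and 15.21 in SP cells, against 14.88, 14.41, 14.47, 14.78 and 15.13 in MP cells, a difference of 0.27 ± 0.28 (95% interval -0.31 to 0.84, adjusted p = 0.631).

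Egr1 (98579_at), a zinc finger factor that binds the EGR site, gave 13.53, 13.53, 14.26, 14.79 and 15.46 on bone marrow SP arrays, against 11.87, 13.86, 13.24, 13.47 and 11.84 on bone marrow MP arrays. Both groups were widely spread, and MP array 2 lay above SP arrays 1 and 2. The difference was 1.46 ± 0.37 (2.75-fold, limma adjusted p = 0.0043), and without the 3 arrays of highest GAPDH ratio it was 0.92 (adjusted p = 0.0696). The call was also lost with median scaling (0.86, adjusted p = 0.189) and with only the bone marrow arrays fitted (adjusted p = 0.0660). In muscle Egr1 gave 16.37, 16.23, 15.61, 16.05 and 16.17 in SP cells, against 16.15, 16.15, 15.95, 16.00 and 16.15 in MP cells. Those groups overlapped throughout, with a difference of 0.00 ± 0.37 (95% interval -0.76 to 0.77). The dim Egr1 probe set 161802_i_at, at the floor on 2 muscle SP arrays and 1 bone marrow MP array, was called in neither tissue.

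Atf3, a CREB-family repressor of stress responses, changed in opposite directions in the 2 tissues by one of its probe sets. Probe set 104156_r_at gave 14.53, 14.40, 14.47, 14.88 and 14.86 on muscle SP arrays, against 14.27, 13.81, 13.80, 14.01 and 14.35 on muscle MP arrays. In bone marrow it gave 10.93, 10.73, 11.04, 10.89 and 10.36 in SP cells, against 11.17, 11.59, 11.12, 11.41 and 11.36 in MP cells. SP values were above MP values without overlap in muscle, and below them without overlap in bone marrow. The differences were 0.58 ± 0.17 in muscle (1.50-fold, limma adjusted p = 0.0313) and -0.54 ± 0.17 in bone marrow (1.45-fold lower in SP, adjusted p = 0.0218). Probe set 104155_f_at had the same signs with 0.14 ± 0.18 and -0.24 ± 0.18 and was called in neither, but it was called in muscle without further normalization (0.62, adjusted p = 0.0468) and in bone marrow with median scaling (-0.94, adjusted p = 0.00169). With the GAPDH ratio as covariate both calls of 104156_r_at were lost (adjusted p = 0.0705 in muscle and 0.0940 in bone marrow), and so were the muscle call without muscle SP array 4 or 5 or muscle MP array 2, 3 or 4 and the bone marrow call without SP array 5 or MP array 2.

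Fosb, Jund and Ccn1 were called for SP against MP in neither tissue. Fosb, which forms AP-1 with Jun proteins and has a long-lived splice form in brain, differed by -0.13 ± 0.33 in muscle (95% interval -0.80 to 0.55) and by 0.70 ± 0.33 in bone marrow (limma adjusted p = 0.114). Its bone marrow values spanned 12.78 to 14.41 in SP and 11.89 to 13.94 in MP cells, and leaving out SP array 4 or MP array 3 brought it past the threshold (adjusted p = 0.0419 and 0.0251). Jund, the AP-1 subunit that is expressed steadily in resting cells, gave 14.88, 14.45, 14.34, 14.08 and 14.17 on muscle SP arrays, against 13.85, 14.18, 13.76, 13.58 and 13.96 on muscle MP arrays. Bone marrow SP arrays gave 14.56, 14.31, 14.74, 14.12 and 14.70 for Jund, against 14.29, 13.81, 14.78, 13.96 and 14.56 on bone marrow MP arrays. Its values overlapped in both tissues and differed by 0.52 ± 0.21 in muscle (adjusted p = 0.110) and 0.20 ± 0.21 in bone marrow. Ccn1 differed by 0.38 ± 0.24 in muscle (adjusted p = 0.344), where SP array 3 at 12.83 stood below the other SP arrays at 13.51 to 13.58.

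**Figure D2:**
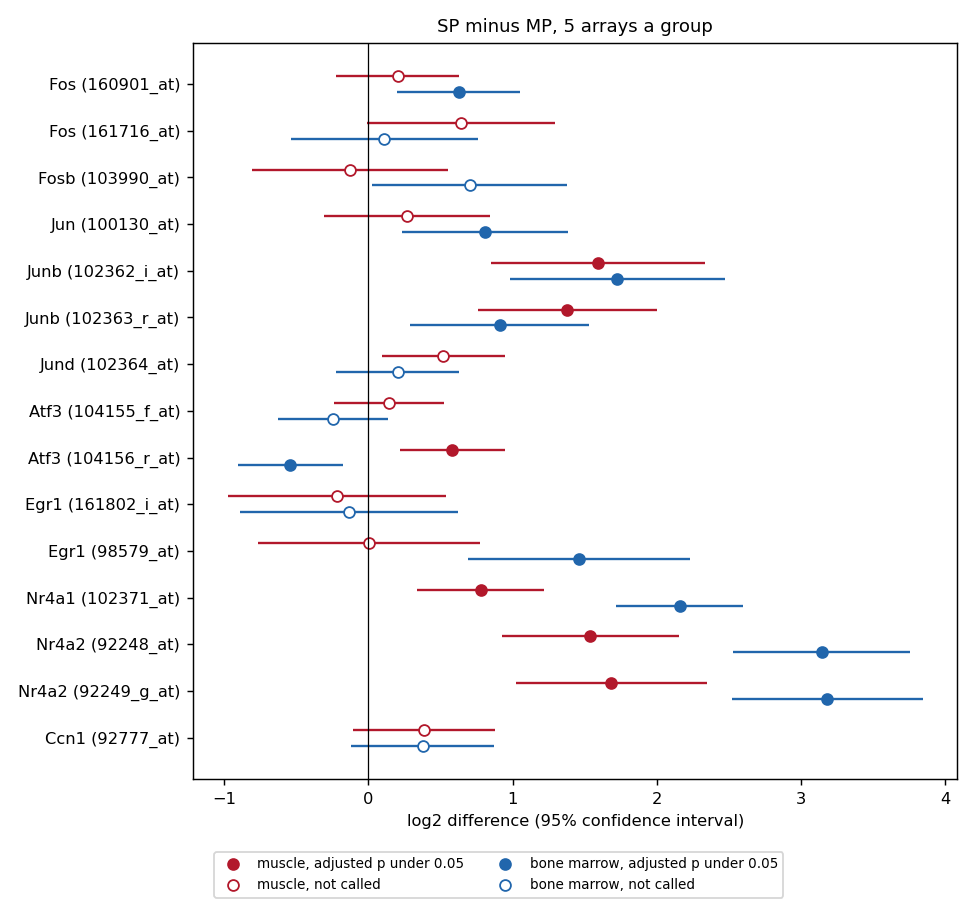
SP minus MP difference (log2) of each tested member probe set in muscle and in bone marrow, with 95% confidence intervals from the limma fit. Nr4a2 in bone marrow had the highest difference, 3.18 by its second probe set, and Atf3 104156_r_at lay above 0 in muscle and below 0 in bone marrow.

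The SP against MP change differed between tissues for Nr4a1, Nr4a2 and 1 Atf3 probe set. The test of that difference itself (muscle change minus bone marrow change) called 1 of 15 member probe sets higher and 3 lower, where 8.69% and 9.85% of all probe sets were called. Nr4a1 gave -1.38 ± 0.30 (limma adjusted p = 0.00225), a smaller SP excess in muscle than in bone marrow, and Nr4a2 gave -1.60 ± 0.42 (adjusted p = 0.0092) and -1.50 ± 0.45 (0.0225) by its 2 probe sets. Atf3 104156_r_at gave 1.12 ± 0.25 (adjusted p = 0.00243). The brighter Atf3 probe set, 104155_f_at, gave 0.39 ± 0.26 and was not called (limma adjusted p = 0.348). It was called only without further normalization and with median scaling. Egr1, with -1.45 ± 0.52, missed the threshold (adjusted p = 0.0571), and Fos and Jun, called in bone marrow and not in muscle, gave -0.42 ± 0.29 and -0.55 ± 0.39 (adjusted p = 0.363 and 0.385), so a difference between tissues was not shown for them. Over the alternatives Egr1 ranged from -1.70 to -0.35 (limma adjusted p from 0.0226 to 0.782) and was called in 7. Fos ranged from -0.58 to 0.60 and Jun from -0.70 to 0.04, and both were called in 0. Without the 3 muscle SP arrays of highest T and NK marker sum, which left 2, Nr4a2 gave -0.90 and -0.81 and neither was called (adjusted p = 0.142 and 0.253). The call of Nr4a2 92249_g_at was also lost with the floor at the 40th percentile. With median scaling Nr4a1 gave -0.84 (limma adjusted p = 0.0892).

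The larger separation was between tissues, whose cell mix also differed. On muscle SP and bone marrow SP arrays the endothelial sums were 17.25 to 17.53 and 12.87 to 13.79, and the granulocyte sums 10.37 to 14.98 and 16.24 to 17.63. Tissue cannot be told apart here from the cell mix or from how the cells of each tissue were prepared, and their part was not tested. In SP cells 10 of the 15 probe sets (8 genes) were higher in muscle than in bone marrow by limma and 0 were lower (also 0 at an unadjusted p under 0.05), where 17.1% of all probe sets were called higher and 21.2% lower, and the median difference was 1.45, beside -0.11 over all probe sets. In MP cells 11 of 15 (9 genes) were higher in muscle and 0 lower, again 0 unadjusted, against 20.9% and 25.6%, with a median of 2.18 beside -0.14. In both populations the AP-1 genes Fos, Fosb and Jun, the factors Egr1 and Atf3, and Ccn1 were called higher in muscle, together with Nr4a1 and Junb 102362_i_at. Jund was called in neither, with -0.10 ± 0.21 in SP and -0.41 ± 0.21 in MP cells (limma adjusted p = 0.752 and 0.105). The Junb probe sets, called in SP cells with 1.45 ± 0.36 and 0.82 ± 0.30, gave 0.94 and 0.26 and were not called without the 3 muscle SP arrays of highest T and NK marker sum (adjusted p = 0.0844 and 0.543). The call of 102363_r_at was lost in 11 alternatives in all, among them no further normalization, no filter and 6 omissions of a single array (muscle SP array 2 or 3, or bone marrow SP array 1, 3, 4 or 5).

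Ccn1 had the highest difference of the 10. It gave 13.53, 13.58, 12.83, 13.51 and 13.51 on muscle SP arrays, against 6.71, 7.47, 6.71, 6.71 and 7.84 on bone marrow SP arrays, 3 of which were at the floor. Muscle MP arrays gave 13.11, 12.53, 12.93, 13.70 and 12.77, and all 5 bone marrow MP arrays were at the floor of 6.71. The muscle signal in MP cells was therefore at least 78.6-fold higher (limma adjusted p = 1.49e-15), and in SP cells the fitted fold was 79.1 (adjusted p = 2.27e-15). Ccn1 is made by fibroblasts and endothelial cells. The fibroblast marker sums were 15.99 to 16.79 on muscle SP and 10.92 to 11.81 on bone marrow SP arrays, and 17.42 to 17.98 and 11.05 to 11.54 on the MP arrays of muscle and bone marrow. The endothelial sums were 17.25 to 17.53 and 12.87 to 13.79 on the SP arrays, and 16.60 to 16.89 and 12.07 to 12.24 on the MP arrays, in the same order. The part of these differences in the Ccn1 result was not tested.

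Among the transcription factors, Atf3 104156_r_at was 14.3-fold higher in muscle than in bone marrow in SP cells and 6.58-fold higher in MP cells, with log2 differences of 3.84 ± 0.17 and 2.72 ± 0.17 (limma adjusted p = 4.53e-14 and 9.88e-12). The other probe set, 104155_f_at, was 7.72-fold higher in SP and 5.91-fold higher in MP cells. Jun was 6.68-fold higher in SP cells (2.74 ± 0.28) and 9.75-fold higher in MP cells (3.28 ± 0.28). Fosb gave 15.87, 16.17, 16.15, 16.28 and 16.02 on muscle SP arrays, against 13.06, 13.93, 14.41, 12.78 and 13.88 on bone marrow SP arrays. On MP arrays it gave 16.08, 16.28, 16.05, 16.28 and 16.43 in muscle, against 12.17, 13.51, 13.94, 11.89 and 13.03 in bone marrow. No muscle array was below 15.87 and no bone marrow array above 14.41, with log2 differences of 2.49 ± 0.33 in SP and 3.31 ± 0.33 in MP cells. Egr1 was higher by 1.77 ± 0.37 in SP and 3.23 ± 0.37 in MP cells, and Fos by 1.45 ± 0.21 and 1.87 ± 0.21.

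These muscle values lie at the top of what the arrays could show. Among 12422 probe sets on an array, Fosb ranked between 5 and 25 on muscle SP and between 2 and 14 on muscle MP arrays, Egr1 between 3 and 42 in SP and between 9 and 20 in MP, and Fos between 9 and 24 in SP and between 15 and 44 in MP. On bone marrow arrays Fos ranked between 129 and 230 in SP and between 193 and 632 in MP cells. Quantile normalization ties log2 signal to rank, so differences between muscle groups for these genes are bounded by the few ranks above them. Without further normalization the muscle SP against MP difference was 0.45 for Fosb, whose sign then differed from that above, and 0.58 for Egr1, and neither was called (limma adjusted p = 0.469 and 0.463).

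**Figure D3:**
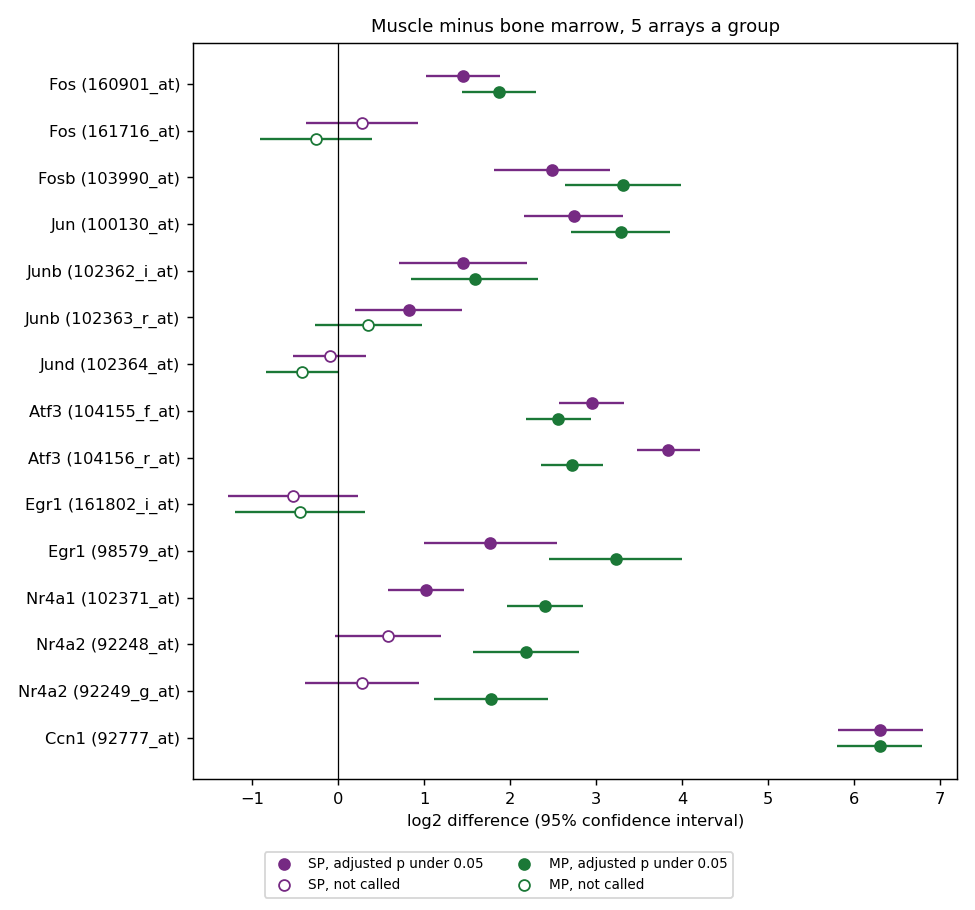
Muscle minus bone marrow difference (log2) of each tested member probe set in SP and in MP cells, with 95% confidence intervals from the limma fit. Ccn1 stands above 6 in both populations, and the Nr4a2 probe sets lie at 0.58 and 0.28 in SP cells and at 2.18 and 1.78 in MP cells.

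The order of the 4 groups differed by gene. For Nr4a1 the mean log2 signal was 14.42 ± 0.27 (SD, n = 5) in muscle SP, 13.64 ± 0.45 in muscle MP, 13.39 ± 0.33 in bone marrow SP and 11.23 ± 0.21 in bone marrow MP cells. The neighbours muscle MP and bone marrow SP differed by 0.25 ± 0.21 and did not pass the test (limma adjusted p = 0.366). For Nr4a2 92248_at the means were 11.25 ± 0.69 in muscle SP, 10.68 ± 0.56 in bone marrow SP, 9.72 ± 0.26 in muscle MP and 7.54 ± 0.38 in bone marrow MP cells, and the first 2 differed by 0.58 ± 0.30 (adjusted p = 0.136). SP cells of the 2 tissues did not pass the test for Nr4a2, whereas MP cells were 4.53-fold higher in muscle (adjusted p = 1.94e-06). Without the 3 muscle SP arrays of highest T and NK marker sum, which left the 2 of highest Nr4a2 signal, the SP difference was 1.29 and was called (adjusted p = 0.00394). It was also called without muscle SP array 3 (0.78, limma adjusted p = 0.0386) or bone marrow SP array 1 (0.77, adjusted p = 0.0482). Junb 102362_i_at had the order muscle SP, bone marrow SP, muscle MP and bone marrow MP, and bone marrow SP and muscle MP were not told apart (muscle MP minus bone marrow SP -0.14 ± 0.36). By the brightest probe set of each gene, Jund alone had its lowest mean in muscle MP cells, 13.87 ± 0.22, against 14.49 ± 0.27 in bone marrow SP cells, and that difference of -0.62 ± 0.21 was called (adjusted p = 0.0178).

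**Figure D4:**
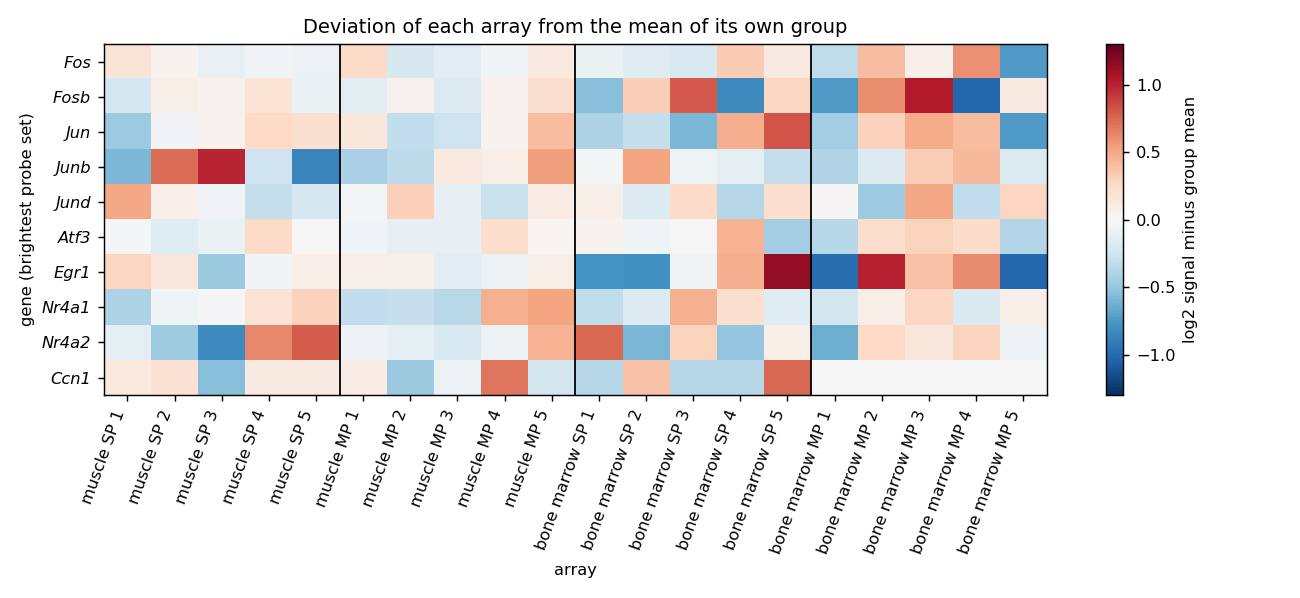
Deviation of each gene's log2 signal from its group mean (colour, log2 units) on each of the 20 arrays, by the brightest probe set per gene. Bone marrow MP array 3 and muscle MP array 5 were above their group mean for 9 of 10 genes, and bone marrow MP array 1 and muscle MP array 3 for 1 of 10.

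Within groups, Fos varied with Jun and Egr1. Deviations from the group means over 20 arrays gave r = 0.70 between Fos and Jun (permutation within groups p = 0.00457, adjusted over 9 pairs 0.0224) and rho = 0.71 (permutation p = 0.00612, adjusted 0.0275). For Fos and Egr1 r was 0.77 (permutation p = 0.00497, adjusted 0.0224) and rho 0.82 (permutation p = 7.40e-04, adjusted 0.00666). Without the 2 arrays farthest in Fos, bone marrow MP 4 and 5, r was 0.62 with Jun and 0.74 with Egr1. On the 10 muscle arrays alone r was 0.22 with Jun and 0.49 with Egr1, against 0.80 with either on the 10 bone marrow arrays. The other 7 pairs with Fos did not pass (r from -0.39 to 0.60), Nr4a1 at -0.03 and Nr4a2 at 0.16 among them. Over all 45 pairs of members the median r was 0.13.

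The genes most like the bright Fos probe set in these deviations, of 9080 probe sets compared over 20 arrays, were Snx2 (r = 0.81), Gucy2c (0.81), Map3k3 (0.77), Zfp36l1 (0.76) and Ighm (0.74). Those most like Egr1 were Adam28 (0.87), Rasd1 (0.86), Ighm (0.83), Hbs1l (0.83) and Ndrg4 (0.82). All points share the arrays, so a common technical shift enters each correlation, and these values are a description only.

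Other immediate early regulators were followed as lists, counted by the brightest probe set of each gene. Counted in that way, the median SP against MP difference of the 10 members was 0.33 in muscle and 0.76 in bone marrow. Of 20 other immediate early transcription regulators, 6 were higher and 0 lower by limma in muscle SP than in muscle MP cells (8 and 0 at an unadjusted p under 0.05, median difference 0.45, beside 0.03 over all probe sets), and 8 were higher and 6 lower in bone marrow SP than MP cells (0.19 beside 0.02). Against bone marrow, 14 of the 20 were higher and 0 lower in muscle SP cells (16 and 0 unadjusted), and 13 higher and 3 lower in muscle MP cells. Of all probe sets, 5.1% were called higher and 6.64% lower for SP against MP in muscle, and 15.4% and 14.8% in bone marrow. For muscle against bone marrow the shares were 17.1% and 21.2% in SP cells, and 20.9% and 25.6% in MP cells. In muscle Nfil3, a basic leucine zipper repressor, rose by 1.43 ± 0.25 (limma adjusted p = 4.63e-04), and the HLH inhibitors Id1 and Id3 rose by 1.07 ± 0.33 and 0.91 ± 0.21. In bone marrow Klf9 rose by 1.55 ± 0.23, Egr2 by 1.51 ± 0.27 and Myc by 1.24 ± 0.39. Klf2, a factor of quiescent lymphocytes and endothelium, fell by 1.31 ± 0.33, and the myeloid factors Cebpd and Cebpb fell by 1.27 ± 0.30 and 1.25 ± 0.25. Granulocyte markers were also lower in summed signal in bone marrow SP cells (16.24 to 17.63 in SP, 18.19 to 18.36 in MP), and their part in the Cebp differences was not tested.

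The 11 relatives of AP-1 that are not immediate early members were called 0 times in muscle by limma (1 higher and 1 lower at an unadjusted p under 0.05), and in bone marrow 1 was higher and 3 lower. Of all probe sets, 15.4% were called higher and 14.8% lower in bone marrow. The counts among 11 genes are too small to set the list apart from these shares. Crem, a CREB-family gene with an inducible repressor form, rose by 1.62 ± 0.28 in bone marrow SP cells, whereas Fosl1 fell by 0.95 ± 0.28, Mafg by 0.82 ± 0.18 and Nfe2l2 by 0.56 ± 0.17. Among 24 early response genes that encode no transcription factor, 4 were higher and 7 lower in muscle SP cells. Of all probe sets, 5.1% were called higher and 6.64% lower there. The growth factor Hbegf rose by 1.51 ± 0.24, Gadd45b by 1.23 ± 0.25 and the cytokine Il6 by 1.20 ± 0.29. The matrix protein Ccn2, a relative of Ccn1, fell by 1.91 ± 0.44, Tnf fell by 1.50 ± 0.46 and Ptgs2 by 1.29 ± 0.40. In bone marrow 5 of the 24 were higher and 5 lower, not far above the 15.4% and 14.8% of all probe sets. Odc1 rose by 1.33 ± 0.21, Hbegf by 1.26 ± 0.24 and Ccl4 by 1.24 ± 0.28. Plaur fell by 1.84 ± 0.24, Gadd45a by 1.73 ± 0.24 and Cxcl2 by 0.99 ± 0.31.

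Of 13 feedback regulators, which shut the early response off, 4 were higher and 0 lower by limma in muscle SP cells (6 and 2 at an unadjusted p under 0.05), and 5 were higher and 6 lower in bone marrow SP cells. The shares of all probe sets called higher and lower were 5.1% and 6.64% in muscle, and 15.4% and 14.8% in bone marrow. Nfkbia, the inhibitor of NF-kappaB, rose by 1.18 ± 0.18 in muscle (limma adjusted p = 1.04e-04), with Nfkbiz at 0.83 ± 0.24 and the MAP kinase phosphatase Dusp2 at 0.74 ± 0.22. In bone marrow Errfi1, an inhibitor of EGF receptors, rose by 1.80 ± 0.23, Dusp1 by 1.10 ± 0.21 and Zfp36l2 by 1.02 ± 0.24, whereas Zfp36, which speeds the decay of cytokine messages, fell by 1.54 ± 0.22, Nfkbiz by 1.53 ± 0.24 and Dusp6 by 1.10 ± 0.32. Among 16 upstream kinases and factors, 2 were higher and 1 lower in muscle SP cells, and 2 higher and 3 lower in bone marrow SP cells, counts near the shares of all probe sets called there (15.4% and 14.8%). Mrtfa, an SRF coactivator, rose by 1.18 ± 0.17 and Creb1 by 0.70 ± 0.20 in muscle SP cells, and the kinase Map2k1 fell by 0.99 ± 0.22. In bone marrow Mef2c rose by 1.19 ± 0.30 and Mef2d by 0.68 ± 0.20, while Map2k1 fell by 1.77 ± 0.22, Map2k4 by 0.95 ± 0.25 and Mrtfa by 0.54 ± 0.17.

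**Figure D5:**
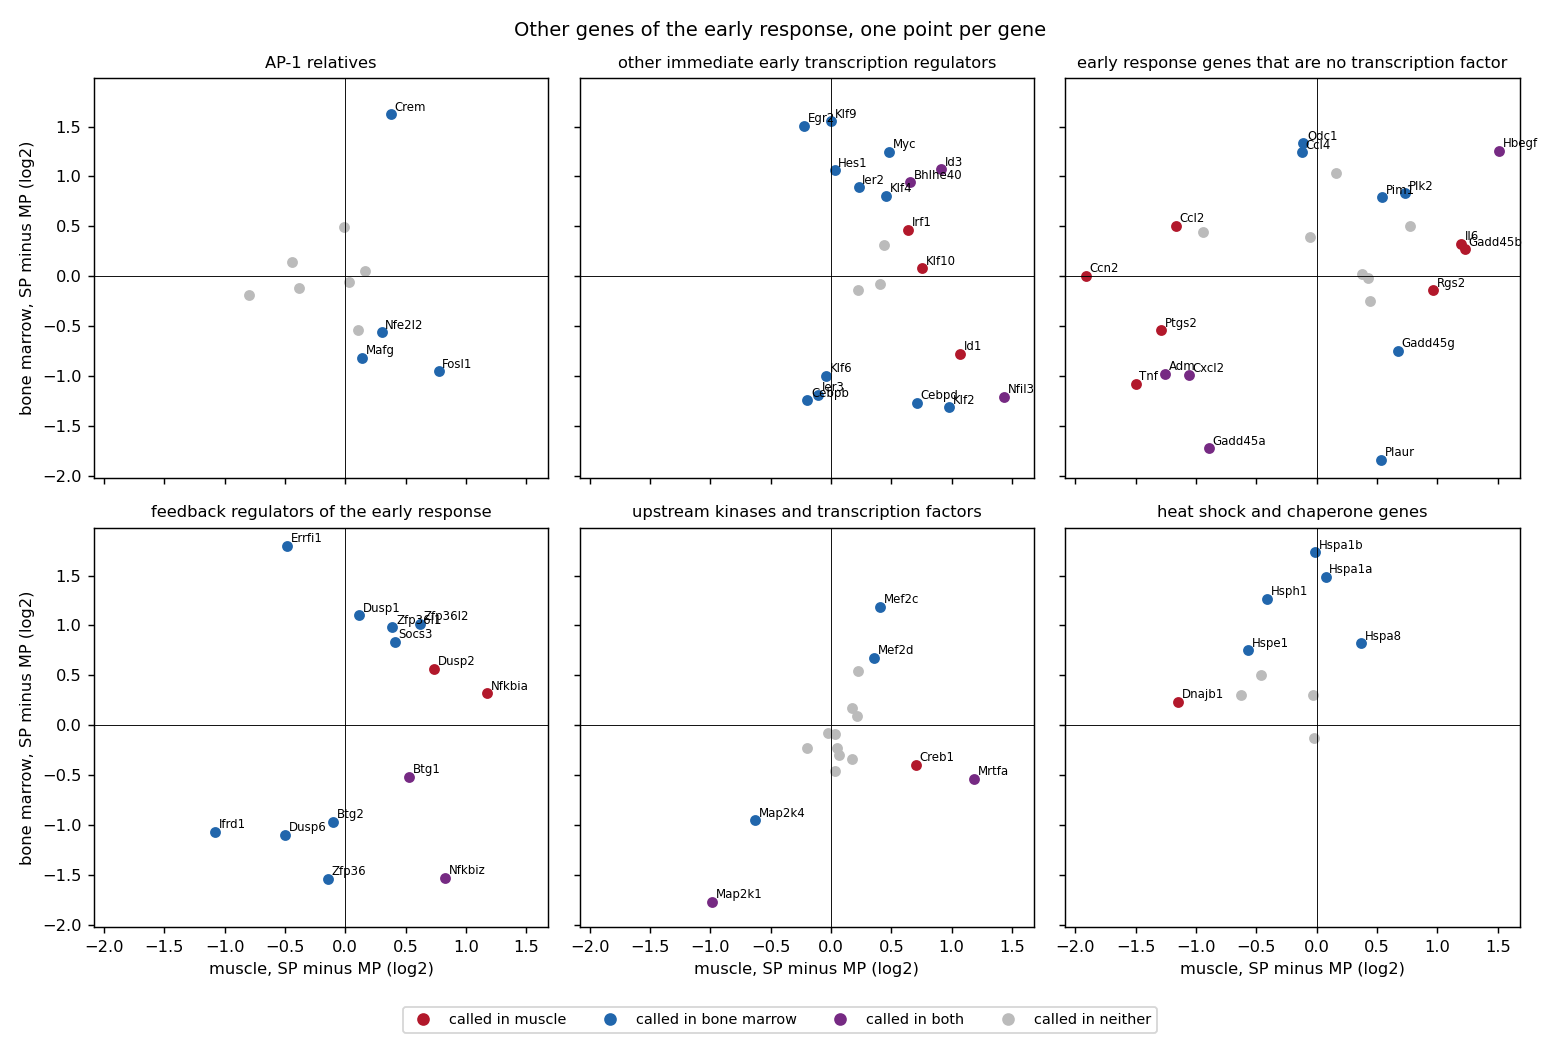
SP minus MP difference (log2) of the genes of 6 related lists, muscle on the horizontal and bone marrow on the vertical axis, a point per gene (brightest probe set), coloured by where it was called; called genes are named. The medians of the other immediate early transcription regulators were 0.45 in muscle and 0.19 in bone marrow.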

How the data were processed

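The deposited values were treated as linear signal intensity per probe set and array, scaled by the authors. The 2%-trimmed means of the 20 arrays averaged 1501. Which software, probe summary and background correction the authors used is not given in the labels. Of 12488 probe sets, 66 controls were left out. Arrays were quantile normalized, values under the 25th percentile of all values were set to it, log2 was taken, and probe sets above the floor on at least 5 of 20 arrays were kept (10310). limma 3.58.1 (R 4.3.3) fitted the 4 groups together with empirical Bayes moderation. Tests were two-sided, with Benjamini-Hochberg adjustment over 10310 probe sets at 0.05, and the number of arrays limits their precision. The script was tested on simulated data. Symbols follow the array's platform annotation, and all 16 member probe sets matched RefSeq by gene ID. Python 3.11.15 with matplotlib 3.10.9 made the figures.

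The members and the related lists were chosen with earlier results of these data known. Named list genes are up to 3 rises and 3 falls with the largest change past the threshold per list for SP against MP in each tissue, by the brightest probe set. Marker sums are log2 of summed normalized signal. In the alternatives, 13 settings and each of the 20 arrays left out were tried as planned, and 1 setting, without the 3 muscle SP arrays of highest T and NK marker sum, was added after seeing the data. Replicate numbers recur in all groups, but only 14 of 30 correlations of same-numbered arrays exceeded 0.1 (range -0.14 to 0.30), so the numbers were not taken as pairs.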

Additional observations from a re-analysis of the deposited data

Results flagged for a closer look

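Among 60 groups of 5 arrays checked for a single array far from the others by Dixon's test, 2 had one, where chance gives about 1 in 20 groups. Nr4a2 (92248_at) stood at 10.17 log2 signal on muscle MP array 5, with the nearest of the other muscle MP arrays at 9.65, still below every muscle SP array. Ccn1 stood at 12.83 on muscle SP array 3, with the nearest of the other muscle SP arrays at 13.51.

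The SP against MP change differed between muscle and bone marrow, by the test of the difference itself, for 4 member probe sets. The muscle change minus the bone marrow change was -1.38 for Nr4a1, -1.60 and -1.50 for the Nr4a2 probe sets and 1.12 for Atf3 104156_r_at (log2, limma). The Nr4a genes were higher in SP cells of both tissues, more so in bone marrow, whereas Atf3 104156_r_at was higher in muscle SP and lower in bone marrow SP cells than in their MP cells.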

How the results depend on the processing

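Of 40 calls on member probe sets, 26 held under all alternatives run (34, or 33 for the difference between tissues, which has no fit of only the groups compared) and 14 were lost in at least one, and 0 called values changed sign. The SP against MP calls of Nr4a2 (both probe sets) in both tissues, and of Nr4a1 and Junb 102362_i_at in bone marrow, are among those that held. The count of member probe sets higher in bone marrow SP than MP cells, 8, was 4 with median scaling, 5 with only the groups compared and 5 without the 3 arrays of highest GAPDH ratio. The count lower there, 1, was 0 without further normalization, 2 with median scaling, 0 with the GAPDH covariate and 0 without those 3 arrays. The count lower in muscle than bone marrow MP cells, 0, was 1 with median scaling and 1 with array weights (Jund). For the difference between tissues the count higher, 1, was 2 without further normalization and 3 with median scaling, and the count lower, 3, was 1 without the 3 muscle SP arrays of highest T and NK marker sum. With each array left out in turn, counts higher and lower ranged from 4 to 6 and 0 to 0 for SP against MP in muscle, 5 to 9 and 0 to 1 in bone marrow, 9 to 10 and 0 to 0 for the tissues in SP cells, 11 to 11 and 0 to 1 in MP cells, and 1 to 1 and 3 to 4 for the difference between tissues. The bone marrow count was 5 without MP array 1 or MP array 5. Scaling moved all probe sets: in bone marrow SP against MP the median of all was 0.02, and 0.31 without further normalization, and 50.9% of calls were higher, against 72.2% without further normalization and 32.9% with median scaling. For the difference between tissues 46.9% of calls were higher, against 30.4% and 62.2%, and its median of all was 0.02, against -0.23 and 0.13. With the replicate number as a block the muscle SP against MP count stayed at 6, and the block changed no call on a member. The number of arrays closest to the array of their own number in the other group was 1, 2, 5 and 5 of 10 in the 4 comparisons of groups. Dim probe sets near the floor (Ccn1 in bone marrow, 161716_at, 161802_i_at) have differences limited by the floor. Nr4a2 was also dim in bone marrow MP cells, at 6.90 to 7.82 by 92248_at and 7.12 to 7.76 by 92249_g_at, with 0 arrays at the floor of 6.71. Its bone marrow folds and its difference between tissues rest on these values.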

Other observations

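Heat shock and chaperone genes, another set induced by stress, differed between tissues. Of 10 tested, 5 were higher and 0 lower by limma in bone marrow SP than in bone marrow MP cells (6 and 0 at an unadjusted p under 0.05), where 15.4% of all probe sets were called higher, with a median log2 difference of 0.63 beside 0.02 over all probe sets. Hspa1b and Hspa1a, the inducible HSP70 genes, rose by 1.73 ± 0.35 and 1.49 ± 0.35 (SE), and Hsph1, a nucleotide exchange factor of HSP70, by 1.27 ± 0.22. In muscle 0 were higher and 1 was lower by limma (1 and 4 unadjusted): Dnajb1, a co-chaperone of HSP70, fell by 1.15 ± 0.25. The test of the difference between tissues called 6 of the 10 lower and 0 higher (7 and 0 unadjusted), where 9.85% of all probe sets were called lower, with a median of -1.14. Hsph1 gave -1.68 ± 0.31 (limma adjusted p = 5.62e-04), whereas Hspa1a, with -1.42 ± 0.50, missed the threshold (adjusted p = 0.0508). The GAPDH ratio was higher on SP arrays in both tissues, and its part in these differences was not tested.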
